A study of Drosophila melanogaster with 18 samples.

Results

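Odorant-binding proteins and chemoreceptors are the gene families with which a fly takes up and detects smells and tastes, and their transcripts were followed here in heads of flies that inhaled ethanol vapor. The genes were those with a probe set carrying exactly 1 symbol in the platform annotation that began with Obp, or with Or, Ir or Gr and a digit, or was Orco. This gave 159 of the 10844 genes with such a probe set, namely 35 odorant-binding protein genes (Obp), 53 odorant receptor genes (Or, with Orco), 43 ionotropic receptor genes (Ir) and 28 gustatory receptor genes (Gr). Where a gene had more than 1 probe set, as for Or46a, Ir8a, Ir10a, Ir40a and Ir93a, the one with the highest mean over all arrays was used.

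Whole heads of wild-type Canton-S Drosophila melanogaster, 2 to 5 days old, were profiled on Affymetrix arrays in 3 groups of 6 biological replicates, each made from about 60 heads. All 3 groups received 50 min of humidified air. Naive flies received nothing more, single-exposure flies then had 1 exposure of 40 min to 50% ethanol vapor, and 5-exposure flies had 5 such exposures. The question behind the series is tolerance that forms quickly after 1 exposure or slowly over repeated ones. No group was kept in air for as long as the exposures lasted, so exposure and elapsed time cannot be told apart. The codes that end the titles ran by group, and the labels do not say what they stand for. Anything that followed these codes cannot be told apart from group. The labels do not give the sex of the flies.

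Odorant-binding proteins are small soluble proteins secreted into the fluid around sensory neurons, where they bind odorants and tastants. Several are also made outside chemosensory organs, in tissues such as fat body and glia. Odorant receptors form ion channels together with the shared co-receptor Orco in neurons of the antenna and maxillary palp. Ionotropic receptors descend from glutamate receptors, use co-receptors such as Ir8a and Ir25a and respond to acids, amines, humidity and temperature, while gustatory receptors detect sugars, bitter compounds and, in the antenna, carbon dioxide. The receptors are each made by few neurons, which form a small fraction of a head.

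The values were linear intensities that the authors had already summarised and normalized, with array medians between 125.4 and 129.3. Of the marker lists used to check the tissue, all 7 matched photoreceptor genes and 3 of 4 neuron genes had a mean intensity above 100. So did 10 of 13 genes known from thorax and abdomen, so an intensity above 100 is not a detection call, and the table carried no such calls. Intensities of different probe sets are not set against each other as amounts of transcript, because each probe set binds with its own strength. In whole heads, fewer cells of a type and less RNA per cell cannot be told apart.

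Of the 159 genes, 53 (33.3%) had a mean over the 18 arrays above 100, against 60.6% of all 13966 probe sets other than controls. The units differ, as each of the 159 genes stands with its highest probe set and the background counts every probe set. The share was 60.0% among the Obp genes (21 of 35), 24.5% among the Or genes (13 of 53), 30.2% among the Ir genes (13 of 43) and 21.4% among the Gr genes (6 of 28). By group, 50 genes had a mean above 100 in naive heads, 57 after 1 exposure and 53 after 5 exposures, and 50 were above it in all 3 groups. The number above 100 on a single array ran from 50 to 55 in naive heads, from 51 to 61 after 1 exposure and from 49 to 57 after 5, so the ranges of the 3 groups overlapped. There were 43 genes above 100 on all 18 arrays and 97 below it on all 18. The 7 genes whose groups fell on different sides of 100 were Or24a, Ir75a, Ir60a, Or83c, Obp47b, Gr28a and Or45b. Just inside the threshold lay Ir60a with a mean of 100.6 and Ir75a with 100.75, and just outside it Or83c with 99.5 and Obp47b with 99.2.

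**Figure D1:**
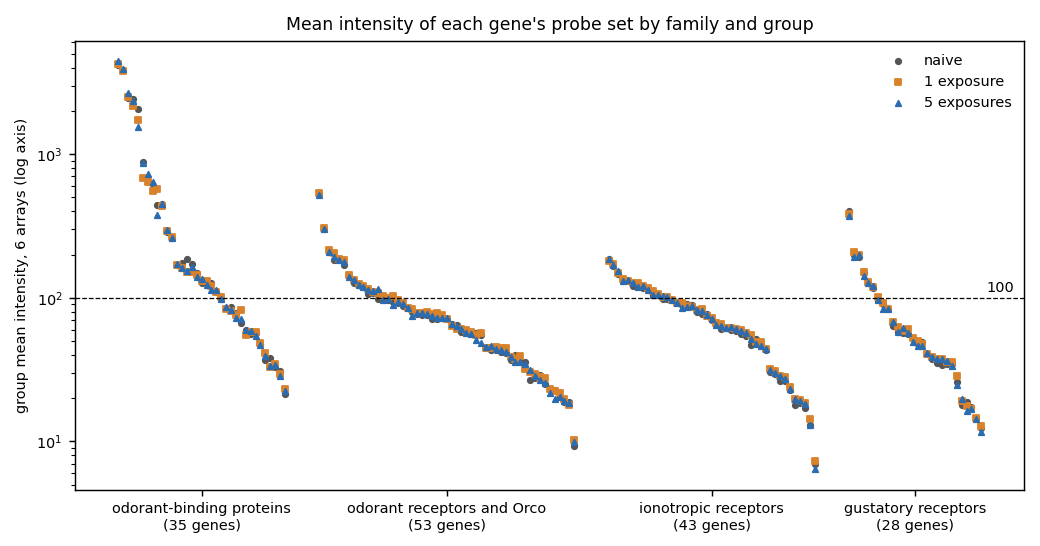
Mean intensity of the 6 arrays of each group (log axis) for the 159 genes, by family and ordered within it by level, with circles for naive, squares for 1 exposure and triangles for 5 exposures, and a dashed line at an intensity of 100. The 3 symbols of a gene mostly coincide, and the 5 genes above 1000 are all Obp genes.

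The 5 Obp genes with means above 1000 were Obp44a, Obp99c, Obp19d, Obp56d and Obp56e. Obp44a, which is known from glia, had a mean of 4143 ± 377 in naive heads, 4222 ± 355 after 1 exposure and 4437 ± 294 after 5 (SD, n = 6 each). Obp99c had means of 3820 ± 212, 3762 ± 173 and 3889 ± 190 in the same order. Obp19d, earlier named Pbprp2 and known from taste and other external sensory hairs, had 2460 ± 187, 2504 ± 130 and 2644 ± 240. For these 3 genes the arrays of the 3 groups overlapped and no comparison was called.

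Many Obp genes lie in runs along the chromosomes, taken here as Obp genes with at most 3 other protein-coding genes between them. All 4 genes of the run Obp19a to Obp19d on the X chromosome had means above 100. Of the 9 genes of the run Obp56a to Obp56i on arm 2R, 6 were among the genes measured and 5 of these had means above 100, namely Obp56a, Obp56d, Obp56e, Obp56g and Obp56h. On arm 3R, Obp99c, Obp99d and Obp99b form a run, and Obp99c and Obp99b were above 100 while Obp99d was not. The remaining Obp genes above 100 were Obp99a, Obp57c, Obp18a, Obp73a, Obp28a, Obp58b, Obp8a, Obp83cd and Obp59a. Obp28a, known from antennal sensilla, had a mean of 261.4 over the 18 arrays.

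Some Obp genes known from the antenna had low values. Obp83b, also known as OS-E, had a mean of 85.1, Obp69a 34.9 and Obp84a 29.6. The gene lush, which encodes the odorant-binding protein needed for sensing the male pheromone and does not carry an Obp symbol on this platform, had a mean of 42.3. These are the values of their probe sets and do not show that the transcripts were absent.

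Among the Or genes the co-receptor Orco ran from 62.0 to 77.1 on naive arrays, with a median of 70.9, from 69.8 to 85.4 after 1 exposure, with a median of 76.2, and from 66.5 to 79.3 after 5, with a median of 76.5. The 3 groups overlapped and every array was below 100. Or59b, the receptor of an antennal neuron that responds to acetate esters, had means of 524 ± 41.4, 533 ± 51.8 and 521 ± 54.3 in naive, single-exposure and 5-exposure heads (SD, n = 6 each). Or7a, an antennal receptor for leaf aldehydes, had 302 ± 20.7, 306 ± 24.2 and 302 ± 20.2. The other Or genes above 100 were Or22c, Or22b, Or9a, Or43a, Or46a, Or23a, Or85d, Or49b, Or10a, Or85a and Or24a. Of these, Or22c and Or24a are known as receptors of the larval nose. The pheromone receptors Or47b and Or67d had means of 44.2 and 45.2, and Or92a, which responds to diacetyl, had 29.6.

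Among the Ir genes the co-receptor Ir8a had means of 168 ± 14.8, 172 ± 8.41 and 169 ± 7.92 in the 3 groups in the same order (SD, n = 6 each). The co-receptor Ir25a had 93.1 ± 3.47, 92.3 ± 2.80 and 92.5 ± 4.96. Neither co-receptor was called in a comparison, and their groups overlapped. Ir92a, a receptor for amines, had a mean of 149.8 over the 18 arrays. Ir56c, Ir52a, Ir85a, Ir75b, Ir60e, Ir7g, Ir7a, Ir60d, Ir56b, Ir75a and Ir60a were the other Ir genes above 100.

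The 6 Gr genes above 100 were Gr8a, Gr2a, Gr98d, Gr43a, Gr5a and Gr64f. Gr8a, a receptor for a plant amino acid that repels flies, had means of 403 ± 29.4, 386 ± 22.3 and 371 ± 20.1 in the 3 groups in the same order (SD, n = 6 each). None of the sugar receptors Gr43a, Gr5a and Gr64f was called in a comparison. Gr43a, a fructose receptor also used in the brain, had 149 ± 10.3, 150 ± 4.75 and 141 ± 10.03, with 4 of the 6 5-exposure arrays below every single-exposure array (fold 0.935, 0.868 to 1.01, limma adjusted p = 0.339). Gr5a, a trehalose receptor, had 126 ± 9.49, 128 ± 11.7 and 126 ± 9.52, and Gr64f, a co-receptor of the sugar receptors, had 116 ± 12.6, 118 ± 7.70 and 120 ± 5.02. Gr63a, a subunit of the carbon dioxide receptor, and Gr66a, a bitter receptor, had means of 19.0 and 34.8 over the 18 arrays.

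Replicate arrays varied by a median of 7.23% (coefficient of variation within groups) over the 53 genes above 100. The median was 8.14% for the Obp genes, 7.18% for the Or genes, 5.96% for the Ir genes and 6.95% for the Gr genes. Obp99b had the largest value of the 53, 23.2%.

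Expression after exposure was compared with limma over all 9317 probe sets that passed a filter on the mean of all 18 arrays, with Benjamini-Hochberg adjustment over all of them and calls at an adjusted p under 0.05. The filter left 66 of the 159 genes in the test, namely 22 Obp, 18 Or, 18 Ir and 8 Gr genes. The other 93 were too low on average and were fitted only without a filter. The 3 comparisons share arrays: both exposed groups were set against the same naive arrays, and the exposed groups also against each other.

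After 1 exposure, none of the 66 genes was called against naive heads, where 4.42% of all tested probe sets were called (2.57% higher and 1.86% lower). At an unadjusted p under 0.05 there were 8 (12.1%), against 14.9% of all probe sets. Of these 8, 6 were among the 22 Obp genes (27.3%), 2 among the 18 Or genes and none among the Ir and Gr genes. The folds ran from 0.783 to 1.35. The median log2 fold change was 0.022, and over all tested probe sets it was 0.012. For 60 of the 66 genes the 95% interval of the fold lay between 0.8 and 1.25.

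After 5 exposures, 1 of the 66 genes was called lower than in naive heads and none higher, where 6.33% of all tested probe sets were called (2.48% higher and 3.85% lower). The called gene was Obp56e. At an unadjusted p under 0.05 there were 6 genes (9.09%), against 17.5% of all probe sets, with 4 of 22 Obp genes (18.2%), 1 Or gene, 1 Gr gene and no Ir gene. The folds ran from 0.750 to 1.18, and for 62 of the 66 genes the 95% interval lay between 0.8 and 1.25. The median log2 fold change was 0.000, and 0.006 over all tested probe sets.

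Between 5 exposures and 1 exposure, 2 of the 66 genes were called lower and none higher, where 8.50% of all tested probe sets were called (3.74% higher and 4.77% lower). These were Obp99b and Or45b. At an unadjusted p under 0.05 there were 8 genes (12.1%), against 18.2% of all probe sets, with 6 of 22 Obp genes (27.3%), 1 Or gene, 1 Gr gene and no Ir gene. The folds ran from 0.651 to 1.28, with 58 of 66 intervals between 0.8 and 1.25. The median log2 fold change was -0.017, and -0.010 over all tested probe sets.

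**Figure D2:**
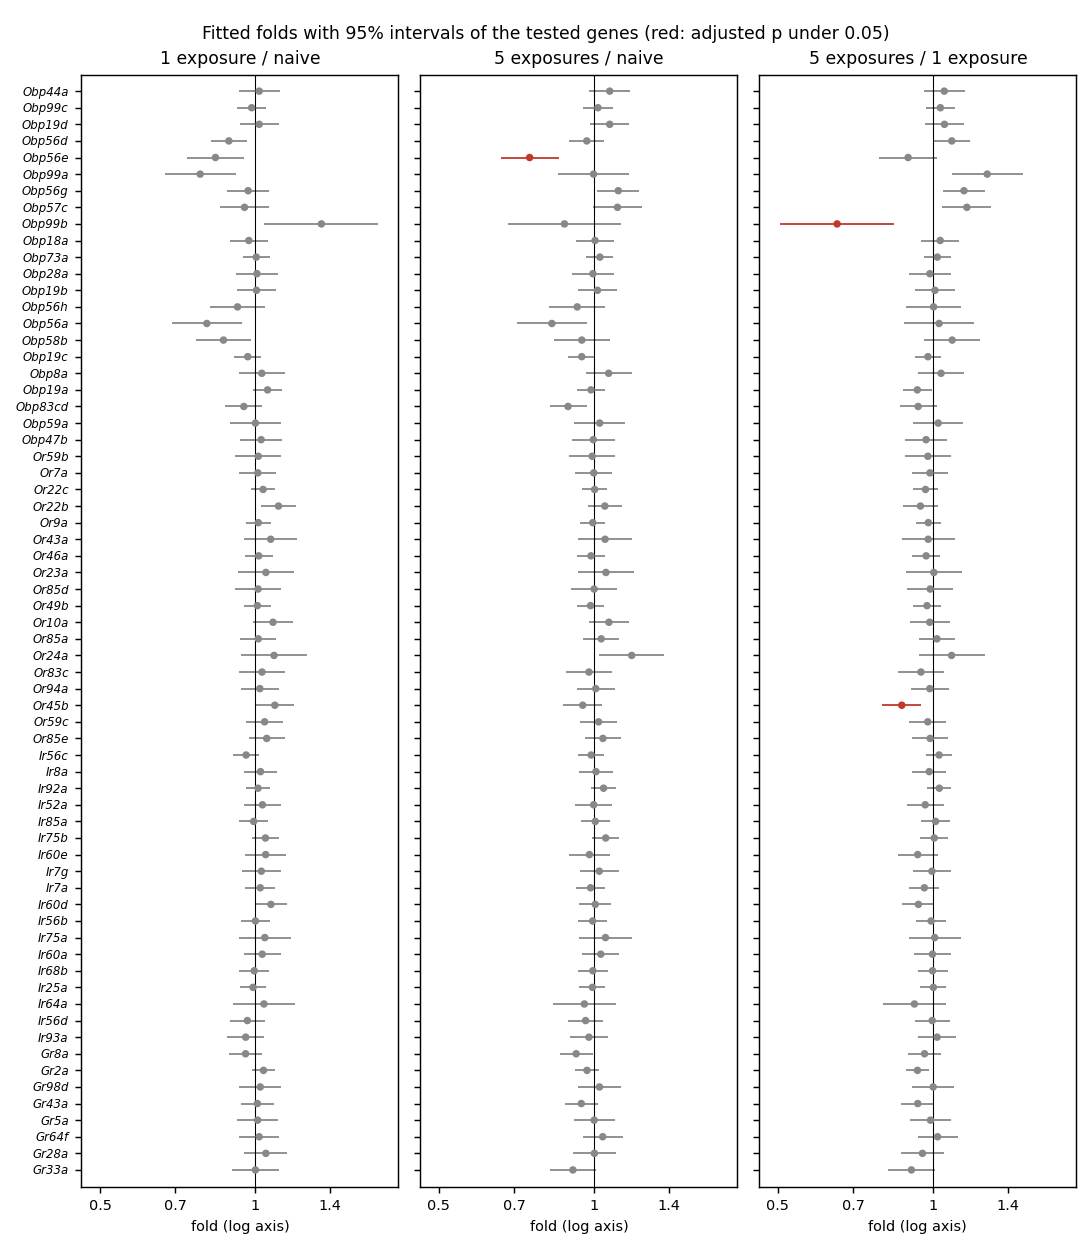
Fold (points, log axis) with 95% confidence intervals from limma (bars) for the 66 tested genes in the 3 comparisons, by family, with called genes in red. Most intervals include 1, and the called genes are Obp56e in the comparison of 5 exposures with naive and Obp99b and Or45b in that of 5 exposures with 1.

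Obp56e (probe set 147517_at, arm 2R) ran from 1741 to 2505 on naive arrays with a median of 2018, from 1327 to 1887 after 1 exposure with a median of 1784, and from 1349 to 1843 after 5 exposures with a median of 1529. Naive arrays were high and 5-exposure arrays low, with 5 of the 6 naive arrays above every 5-exposure array. The mean fell from 2061 ± 255 to 1545 ± 179 (SD, n = 6 each), a fold of 0.750 (95% interval 0.659 to 0.854, limma adjusted p = 0.00543). This call held under all 28 alternatives, with adjusted p from 0.00137 to 0.0284. After 1 exposure the mean was 1728 ± 202, a fold of 0.838 against naive (0.736 to 0.954, adjusted p = 0.133), and the fold of 5 exposures against 1 was 0.895 (adjusted p = 0.381). Neither of these passed the test.

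The other tested genes of the Obp56 run did not pass the test in any comparison. Obp56a ran from 151.9 to 209.2 on naive arrays with a median of 192.7, from 122.7 to 186.6 after 1 exposure with a median of 149.3, and from 110.6 to 176.0 after 5 with a median of 157.2. Its fold was 0.806 after 1 exposure (adjusted p = 0.125) and 0.829 after 5 (adjusted p = 0.169), with the groups overlapping. Obp56d, with a fold of 0.890 after 1 exposure (adjusted p = 0.0944), was at 0.969 after 5. Obp56g was at 0.970 after 1 exposure and 1.115 after 5 (adjusted p = 0.190), and its fold of 5 exposures against 1 was 1.15 (adjusted p = 0.0596). Obp56h was at 0.925 after 1 exposure (adjusted p = 0.614) and 0.928 after 5 (adjusted p = 0.604). All tested genes of the run, Obp56e included, thus had a fold below 1 after 1 exposure, and all but Obp56g after 5. Of all 9317 tested probe sets, 3996 had a fold below 1 after 1 exposure and 4346 after 5. The genes of the run share arrays, so their directions are not independent of each other. Differences between the genes were not tested.

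**Figure D3:**
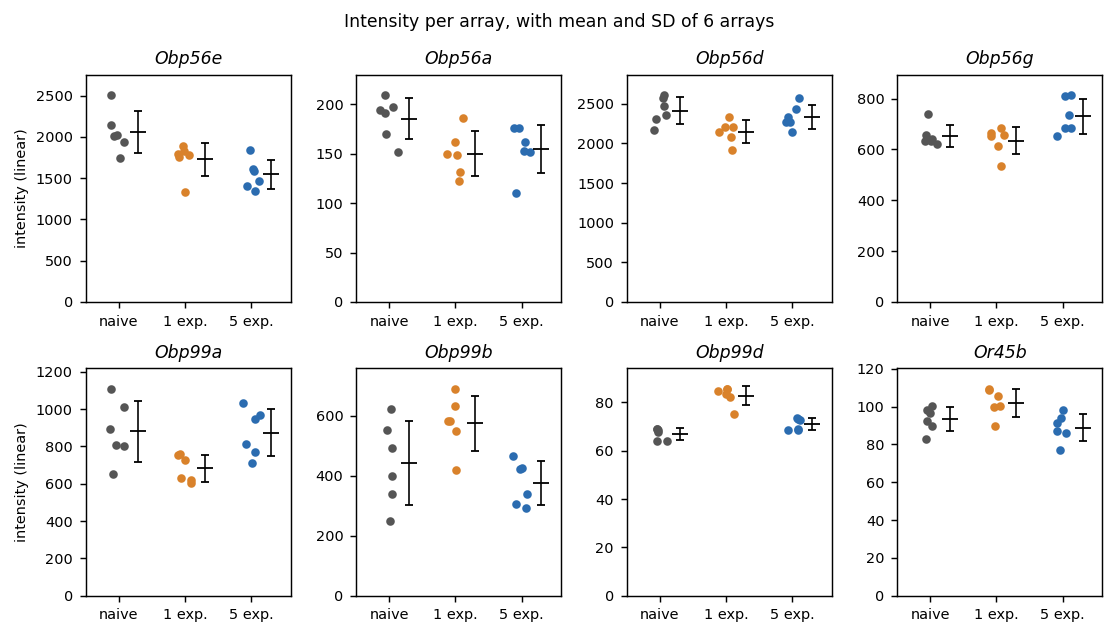
Intensity on each array (points) with the mean and SD of the 6 arrays of each group (bars beside the points) for 7 odorant-binding protein genes and Or45b, 1 panel per gene with axes from 0. For Obp56e 5 of the 6 naive arrays lie above every 5-exposure array, and for Obp99d all single-exposure arrays lie above those of both other groups.

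Obp99b (probe set 150837_at, arm 3R), also named tsx and reported in the fat body of male heads, ran from 248 to 622 on naive arrays with a median of 446. It ran from 418 to 689 after 1 exposure with a median of 582, and from 293.7 to 466.3 after 5 exposures with a median of 381. Naive arrays spread over nearly the whole range of the other groups, and 5 of the 6 single-exposure arrays lay above every 5-exposure array. The mean was 442 ± 140 in naive heads, 575 ± 91.1 after 1 exposure and 376 ± 72.1 after 5 (SD, n = 6 each). The fold of 5 exposures against 1 was 0.651 (0.505 to 0.840, limma adjusted p = 0.0305), while 1 exposure against naive gave 1.35 (1.04 to 1.74, adjusted p = 0.237) and 5 exposures against naive gave 0.877 (adjusted p = 0.674). The call was lost in 9 of 28 alternatives. These were no filter on low values (adjusted p = 0.106), a trended and robust prior (0.0555) and 7 arrays left out 1 at a time, namely single-exposure replicate 2 (0.0590), 3 (0.0703), 4 (0.0534) or 5 (0.0670) and 5-exposure replicate 1 (0.0615), 5 (0.0730) or 6 (0.0808).

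Because Obp99b is known from fat body, the 6 matched fat body markers are given beside it. Their summed intensity ran from 39896 to 43756 on naive arrays, from 40059 to 42047 after 1 exposure and from 39116 to 46693 after 5, so the groups overlapped. Most of this sum came from Yp1, Yp2 and Yp3, with means of 11598, 11203 and 10310, so it says little of the other markers. Yp1, Yp2 and Yp3 were not called in any comparison. Of the 6, Lsp2 was called higher and fit lower after 1 exposure, 2 were called higher after 5 exposures against naive, and 2 were called higher between 5 exposures and 1. The gene fit had a fold of 0.398 after 1 exposure (adjusted p = 6.6e-06) and 2.73 between 5 exposures and 1 (adjusted p = 1.38e-06). Lsp2 had 1.43 (adjusted p = 0.0120) and 1.15 (adjusted p = 0.436) in the same comparisons, and apolpp 0.897 (adjusted p = 0.134) and 1.28 (adjusted p = 0.000145). The folds of Obp99b in these comparisons were 1.35 (not called) and 0.651. Those of fit and apolpp lay on the other side of 1 in both, and that of Lsp2 only between 5 exposures and 1. The part of fat body content in the values of Obp99b was not tested, nor was that of sex. The labels do not give the sex, so a different mix of sexes between groups cannot be told apart from exposure.

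Obp99a (probe set 150831_at, arm 3R) lay in the other order. It ran from 654 to 1108 on naive arrays with a median of 852, from 603 to 759 after 1 exposure with a median of 680, and from 710 to 1035 after 5 with a median of 878. The groups overlapped, with 5 of the 6 naive arrays above every single-exposure array and 5 of the 6 5-exposure arrays above every single-exposure array. The fold after 1 exposure was 0.783 (0.668 to 0.917, adjusted p = 0.0768) and that of 5 exposures against 1 was 1.28 (1.09 to 1.495, adjusted p = 0.0515), so neither passed the test. After 5 exposures the fold against naive was 0.998. The comparison of 5 exposures with 1 was called in 10 of 28 alternatives. Those that left out an array were naive replicate 5 (0.0283), naive replicate 6 (0.0258), single-exposure replicate 1 (0.0473), single-exposure replicate 3 (0.0482), 5-exposure replicate 4 (0.0270) and 5-exposure replicate 5 (0.0461). The comparison of 1 exposure with naive was called in 1 of 28, without naive replicate 6 (0.0152).

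Obp99d, in the same run as Obp99b and Obp99c, was below the filter on low values, with a mean of 73.6, and was singled out after its values were seen. It ran from 63.9 to 69.0 on naive arrays with a median of 68.2, from 75.1 to 85.6 after 1 exposure with a median of 84.3, and from 68.6 to 73.7 after 5 with a median of 70.8. All 6 single-exposure arrays lay above all arrays of both other groups, and every array was above the floor of 57.8 used in the fit. Without a filter, 2.54% of 13966 probe sets were called after 1 exposure, 3.67% after 5 and 4.85% between the exposed groups. In that fit the fold of Obp99d was 1.23 after 1 exposure (1.18 to 1.30, limma adjusted p = 5.47e-05). The fold of 5 exposures against 1 was 0.857 (0.816 to 0.901, adjusted p = 0.000655) and that of 5 exposures against naive 1.06 (adjusted p = 0.265). Obp99d was the 1 gene called among the 93 that the filter had left out. Only 20 of the 93 were above the floor on all 18 arrays, so the floor hid part or all of the spread of the others. Groups also separated fully at lower intensities. All 5-exposure arrays of Or2a (43.8 to 51.5) lay below all single-exposure arrays (52.1 to 61.2). All 5-exposure arrays of Or85c (17.5 to 21.3) lay below all naive arrays (21.9 to 23.3). Most of these values were under the floor. Full separation was looked for in all 159 genes and 3 comparisons. Its share over all probe sets was not determined, so the separation of Obp99d, Or2a and Or85c has no background to be read against.

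Or45b (probe set 146889_at), an odorant receptor known from larvae, ran from 82.7 to 100.1 on naive arrays with a median of 94.7, from 89.6 to 109.3 after 1 exposure with a median of 102.9, and from 77.3 to 98.0 after 5 with a median of 89.1. The groups overlapped, with 5 of the 6 single-exposure arrays above every 5-exposure array. The fold of 5 exposures against 1 was 0.870 (0.798 to 0.949, limma adjusted p = 0.0413), and 1 exposure against naive gave 1.09 (adjusted p = 0.323). The call was lost in 12 of 27 alternatives, including no filter (0.0856), only the 2 groups compared (0.0501) and array weights (0.0540). It was also lost without single-exposure replicate 1 (0.0826), 2 (0.101), 4 (0.0540), 5 (0.0612) or 6 (0.101) and without 5-exposure replicate 1 (0.0751), 4 (0.0888), 5 (0.107) or 6 (0.0556). With a mean of 94.8 the gene lay just above the filter.

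The 18 tested Or genes all had a fold above 1 after 1 exposure, from 1.01 to 1.11, with a median log2 fold change of 0.049, where 57.1% of all tested probe sets had a fold above 1. None was called, and 2 had an unadjusted p under 0.05. All 18 remained above 1 under quantile normalization and median centring, and 16 without naive replicate 5. After 5 exposures 11 of the 18 lay above 1 against naive, and 3 against 1 exposure. A fold above 1 after 1 exposure was also found for 7 of the 8 tested Gr genes and 12 of the 18 Ir genes. Among the 22 tested Obp genes it was found for 10. The direction was thus not particular to the Or genes. The genes share arrays, so their directions are not independent of each other. Or22b, a receptor expressed with Or22a in a fruit-ester neuron, ran from 175 to 198 on naive arrays with a median of 181, from 189 to 224 after 1 exposure with a median of 202, and from 179 to 215 after 5 with a median of 189. Its fold after 1 exposure was 1.11 (1.03 to 1.199, adjusted p = 0.129). Or24a had a fold of 1.18 after 5 exposures against naive (1.02 to 1.37, adjusted p = 0.202). Orco, fitted without a filter, had a fold of 1.09 after 1 exposure (0.994 to 1.19, adjusted p = 0.473).

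**Figure D4:**
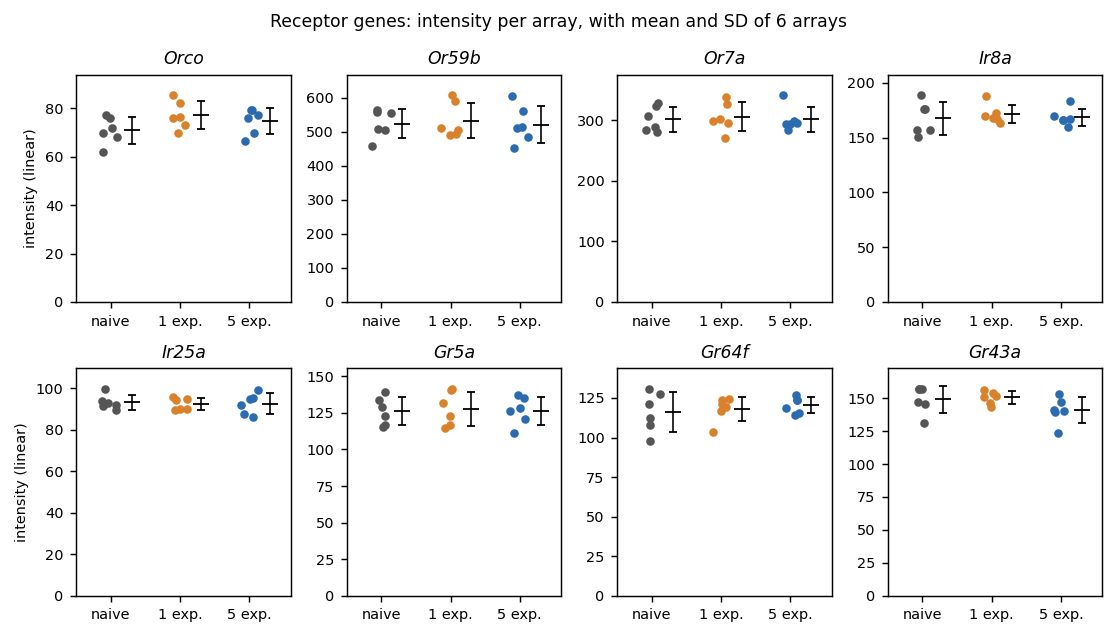
Intensity on each array (points) with the mean and SD of the 6 arrays of each group (bars beside the points) for 8 chemoreceptor genes, 1 panel per gene with axes from 0. The arrays of the 3 groups overlap in every panel.

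The 18 tested Ir genes had folds from 0.959 to 1.07 after 1 exposure, from 0.958 to 1.05 after 5 and from 0.920 to 1.03 between the exposed groups. None was called and none had an unadjusted p under 0.05 in any comparison. Ir60d, with a fold of 1.07 after 1 exposure (adjusted p = 0.348) and 0.937 between 5 exposures and 1 (adjusted p = 0.350), had one of the smallest p-values of the family. The intervals of all 18 lay between 0.8 and 1.25 in both comparisons with naive heads. Ir8a, the co-receptor, had folds of 1.03 after 1 exposure (0.951 to 1.11) and 1.01 after 5 (0.935 to 1.09), and its other probe set, with a mean of 117.6, gave 1.02 and 0.969.

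Of the 8 tested Gr genes none was called, and the intervals of all 8 lay between 0.8 and 1.25 in all 3 comparisons. Gr2a had a fold of 0.933 between 5 exposures and 1 (0.885 to 0.984, adjusted p = 0.114), with 5 of the 6 single-exposure arrays above every 5-exposure array. Gr8a had a fold of 0.924 after 5 exposures against naive (0.859 to 0.994, adjusted p = 0.230). Gr5a had folds of 1.01 and 1.001 after 1 and 5 exposures, with intervals from 0.924 to 1.11 and from 0.914 to 1.098.

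Other genes of smell and taste, from a list of 56 names that covered pheromone-sensing proteins, ion channels of taste neurons and transcription factors of chemosensory neurons, were also examined. Of these, 34 matched a probe set, 14 had a mean above 100 and 15 were tested. None was called by limma in any of the 3 comparisons, and none had an unadjusted p under 0.05. The smallest p-values belonged to amos, a transcription factor that specifies olfactory sensilla, with a fold of 1.09 after 1 exposure (adjusted p = 0.349), dati, a zinc finger transcription factor, with 1.07 after 5 (adjusted p = 0.315), and the TRP channel genes pain, with 0.943 after 1 exposure (adjusted p = 0.414), and TrpA1, with 0.942 between 5 exposures and 1 (adjusted p = 0.364). Snmp1, a membrane protein needed for pheromone detection, had a mean of 119.7.

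Markers of other head tissues moved between the same groups. Of 5 matched muscle markers, 4 were called lower after 5 exposures against naive and 4 against 1 exposure, and their summed intensity ran from 7696 to 11472 on naive arrays, from 8148 to 9788 after 1 exposure and from 5738 to 8071 after 5. Of 7 photoreceptor markers, 1 was called higher and 1 lower after 5 exposures against naive, and trpl (fold 0.760) and chp (0.875) were called lower between 5 exposures and 1. None of the 3 tested neuron markers was called. The part of tissue content in the values of Obp56e, Obp99b, Obp99d and Or45b was not tested.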

How the data were processed

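The deposited table gave a linear intensity for each of 14010 probe sets on each of 18 arrays. The authors had summarised and normalized it with software the labels do not name; per the labels, 6 µg of total RNA per sample was turned into biotinylated cRNA. Genes were named from the platform annotation. The members and lists were chosen with earlier results of these data known.

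Intensities under the pooled 20th percentile (57.8) were raised to it before log2 was taken. Besides the 44 controls, probe sets with a mean log2 under 6.42 (85.8 as an intensity) were dropped, and 9317 were tested. One limma 3.58.1 model of the 3 groups (R 4.3.3, lmFit and eBayes, 15 residual degrees of freedom, no block) gave two-sided tests, whose p-values measure the spread between what the labels call biological replicates. Intensities are means ± SD of 6 arrays, a number that limits the precision.

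Genes named are those above 100, those called, the 2 smallest p-values per family and, from the list of other olfactory and gustatory genes, up to 4. Low genes of known role, members near the test's threshold, Obp99d, Or2a and Or85c were added after their values were seen. Chromosome arms, synonyms and neighbours come from the RefSeq gene table (Release 6 plus ISO1 MT), without coordinates. No sequence is shown.

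On simulated data for 1 exposure against naive (9317 probe sets, 50 changed at each fold), 80% were recovered at 1.2-fold, 98% at 1.5-fold and 100% at 2-fold and 3-fold, with 10 false calls. Same-numbered replicates of different groups were correlated above 0.1 in 8 of 18 pairs, with the highest value at 0.52. The main model did not pair arrays by number, and 1 alternative did. The alternatives changed the scaling (quantile, median), the filter (none, or at the median), the floor (5th percentile, 24.9, or a pseudocount of 16 instead), the prior (trended and robust), the weights, the groups in the fit, the replicate block, the probe sets and symbols used, and each array in turn. Tables and plots were made in Python 3.11.15 with numpy 2.4.6, pandas 2.3.3 and matplotlib 3.10.9.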

Additional observations from a re-analysis of the deposited data

Results flagged for a closer look

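In 11 of the 162 combinations of a named gene and a group (6.79%), 1 of the 6 arrays stood apart from the other 5 by Dixon's criterion, where chance gives about 1 in 20. Naive replicate 5 was the outlying array for Gr8a, at 459.4 with the next array at 404.4, and for Gr98d, at 159 with the next at 193.3. Naive replicate 4 was high for Obp56g, at 737.7 against 657.2, and naive replicate 6 was low for Obp99c, at 3424 against 3819. Among single-exposure arrays, replicate 1 was low for Or24a (72.92 against 105.2), replicate 2 for Gr64f (103.3 against 116.8) and replicate 6 for Obp56e (1327 against 1751). Among 5-exposure arrays, replicate 5 was low for Obp28a (207.9 against 254.5) and Obp56a (110.6 against 151.3), replicate 4 was high for Or7a (341.8 against 299.3) and replicate 2 for Or9a (193.4 against 184.1). In each pair the second value is that of the nearest array.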

How the results depend on the processing

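The folds followed gene by gene through the alternatives, those of Obp56a, Obp56d, Obp56e, Obp56g, Obp57c, Obp83cd, Obp99a, Obp99b, Obp99d, Or22b, Or24a and Or45b in the comparisons in which a call was made in the main or another setting, and all 3 for Obp99d, kept their sign. Smaller folds did not all do so: without naive replicate 5 the tested genes with a fold above 1 after 1 exposure numbered 39 in place of 47, with Or genes at 16 in place of 18, Gr genes at 6 in place of 7, Ir genes at 10 in place of 12 and Obp genes at 7 in place of 10. The number of genes called after 1 exposure, 0 of 66, became 1 under quantile normalization (Obp56d), 1 without a filter (Obp99d) and 0 to 1 with an array left out (1 without naive replicate 4 or 6, single-exposure replicate 1 or 5-exposure replicate 5). With a replicate block it was 3 (Obp56a, Obp99b and Or22b). For 5 exposures against naive the count of 1 became 2 with the replicate block (Obp56e and Obp83cd) and 1 to 2 with an array left out (2 without naive replicate 4, single-exposure replicate 1 or 5-exposure replicate 1). For 5 exposures against 1 the count of 2 became 5 under quantile normalization, 1 without a filter, 1 with a trended and robust prior, 1 with array weights and 4 with the replicate block, and lay between 0 and 4 with an array left out. It was 0 without single-exposure replicate 2, 4 or 5 or 5-exposure replicate 1 or 6, 1 without single-exposure replicate 6 or 5-exposure replicate 5, and 4 without single-exposure replicate 3. The count above an intensity of 100, 53, was 107 at a threshold of 50 and 16 at 200, and 52 to 54 with an array left out. The cause of these differences was not tested. The labels do not say whether replicate numbers pair arrays across groups. Of the 18 arrays, 8 correlated best with an array of their own number. Correlations of same-numbered arrays ran from -0.24 (replicate 3, naive and 5 exposures) to 0.52 (replicate 4, single and 5 exposures). Whether same-numbered arrays share a batch was not tested, so the main model, which has no block, may leave out such a batch. The alternatives for Obp99d without a filter were chosen after seeing the data. Its calls held in all 25, with adjusted p from 4.31e-06 to 0.00104 after 1 exposure and from 6.53e-05 to 0.00413 between 5 exposures and 1. Probe sets with a mean below an intensity of 85.8 were not tested in the filtered fit, and 61 of the 159 genes had means below the floor of 57.8. In the fit without a filter, raising values to this floor hid part or all of any change in these 61.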
